A study of Caenorhabditis elegans with 4 samples.

Results

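Isolated NHR-23 sites are the binding regions in the L3 larva of Caenorhabditis elegans that stand alone in the authors' combined list, with no other site of that list near them. NHR-23 is a nuclear hormone receptor of the family that includes fly DHR3 and the vertebrate ROR receptors. It acts in the epidermis, where it is needed for moulting, and its expression rises and falls with each larval stage. Sites were recorded as peaks, regions in which DNA recovered with the tagged receptor piled up. The sites were chosen by their positions in the list that the authors combined from both replicates. A peak was a member when the centre of the nearest other combined peak on its chromosome lay more than 20000 bp away, with a chromosome end counted as far. Of 6142 distinct combined peaks (36 of the 6178 entries repeat a region), 471 were isolated and 5671 were not. The spacing is therefore a description of how the sites were picked and not a result, and the chromosomal location of the sites is tied to it through the local density of peaks.

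The material was chromatin of hermaphrodites of strain OP43 at the L3 stage, grown at 20 °C. All 4 samples carried the allele unc-119(ed3) and the transgene wgIs43, introduced by bombardment. It supplies NHR-23 joined to TY1, EGFP and FLAG tags, together with a working unc-119. The genotype lists no change at the worm's own nhr-23 gene. The 2 ChIP samples were immunoprecipitated with an antibody against GFP, and the 2 Input samples are chromatin kept aside beforehand. Input values were not analysed here. The labels do not say whether replicates 1 and 2 came from separate cultures, so differences between them may be technical. The lists held 30000 peaks for ChIP replicate 1 and 25173 for ChIP replicate 2, the read depth behind them is unknown, and positions are in build WS220. Each list gives its peaks a running number, and a low number is read here as a strong peak. Whole worms were used, so a site bound in few cells and a site bound weakly in many cannot be told apart.

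Isolated sites ran through the whole range of strength, with combined peak numbers from 5 to 6160. The strongest was on chromosome III from 7854464 to 7854775, with peak number 4 in replicate 1 and 6 in replicate 2. Its nearest combined neighbours lay 25571 and 37338 bp away. Second came a site on chromosome IV from 13240515 to 13240817 (combined number 9, numbers 10 and 13 in replicates 1 and 2), which had no combined neighbour for 130762 bp on one side and 31971 bp on the other. The best isolated site on X, from 2996824 to 2997414, had combined number 21 and numbers 14 and 47 in the replicates. On chromosome I the best was from 13756386 to 13756675 (combined 30, replicates 34 and 41), on chromosome II from 1320481 to 1320759 (combined 48, replicates 45 and 85) and on chromosome V from 9789866 to 9790143 (combined 126, replicates 75 and 262). Thus 5 of the 6 chromosomes each had, among the first 100 combined peaks, a site that was alone in the combined list. Both replicates placed these sites near the top of their lists, but not all of them were alone there. Among the best peaks of each replicate, as many as the combined list holds, some had another peak within 20000 bp. It was so in replicate 1 for the site on III and in replicate 2 for the sites on IV and II. The sites on X and I were alone in both.

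The other 5 of the 10 strongest isolated sites were spread over X, IV and III. On X they lay from 5429289 to 5429752 (combined 45, replicates 30 and 82), from 16056197 to 16056782 (combined 61, replicates 59 and 91) and from 16681864 to 16682253 (combined 77, replicates 107 and 78). The site on chromosome IV from 1094217 to 1094505 had combined number 69 and numbers 95 and 81 in the replicates. The last, on chromosome III from 1080624 to 1080885, had combined number 94 and numbers 220 and 45. In all 10 the peak centres of the replicates were within 32 bp of each other. X supplied 4 of the 10, and 27 of the 90 other peaks among the first 100.

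Isolated sites were not placed lower in the combined list than other peaks. The median combined peak number was 2914 for isolated sites (interquartile range 1402 to 4382) and 3110 for all other peaks (1552 to 4644.5). Of the 471 isolated sites, 128 (27.2%, exact 95% interval 23.2 to 31.4) were among the strongest 25.0% of the combined list, against 1407 of 5671 other peaks (24.8%, 23.7 to 26.0). In the weakest 25.0% were 107 isolated sites (22.7%, 19.0 to 26.8) and 1429 other peaks (25.2%, 24.1 to 26.4). The intervals of isolated sites and other peaks overlap for both shares, and they take peaks as independent. No interval was computed for the difference between the shares. The first 100 combined peaks held 10 isolated sites (2.12% of them) and 90 other peaks (1.59%), while the first 500 held 36 (7.64%) and 462 (8.15%).

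The replicates were read separately as well. The median peak number in replicate 1 was 3228 at the 469 isolated sites found there and 3198 at 5616 other peaks. In replicate 2 it was 2945 at 462 isolated sites and 3165 at 5643 other peaks. By width, 279 isolated sites (59.2%) had the commonest combined width of 380 bp, as had 3322 (58.6%) of the others. The authors' score was at its ceiling in replicate 1 for 68.0% of isolated sites and 69.4% of other peaks, and in replicate 2 for 98.3% and 97.9%.

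Shares were also taken by class of distance to the nearest peak, in the combined list. Peaks with a neighbour within 1000 bp (1331) were in the strongest 25% in 22.6% of cases (20.4 to 24.96) and in the weakest in 28.2% (25.8 to 30.7). Between 10000 and 20000 bp (588 peaks) the shares were 26.7% and 23.6%, and between 20000 and 40000 bp (361 isolated sites) 27.7% and 22.2%. Beyond 40000 bp (110 isolated sites) they were 25.5% (17.6 to 34.6) and 24.5% (16.8 to 33.7). Counting sides instead gave 25.6% in the strongest 25% for 2132 peaks with a long gap on 1 side and 24.4% for 3539 with none. The replicate lists gave no common order: the closest class had a median number of 3059 in replicate 1, the lowest of the 7 classes, and of 3304 in replicate 2, the highest. Beyond 40000 bp the medians were 3369 and 3297.

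**Figure D1:**
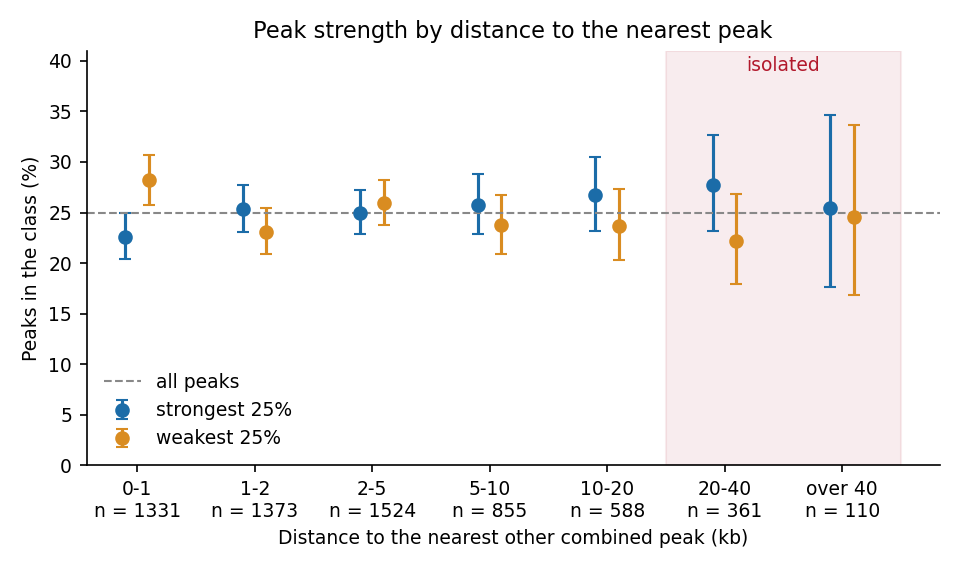
Share of combined peaks (%, vertical axis) in the strongest 25% and the weakest 25% of the list, by distance to the nearest other combined peak (kb, horizontal axis, with the number of peaks in each class). Points are shares, bars are exact 95% intervals and the dashed line is the share over all peaks; the shaded classes are the isolated sites, where the strongest 25% held 27.7% and 25.5% of sites.

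On X the isolated sites were placed nearer the top of the combined list than the other peaks, a contrast picked out after 3 parts of the genome and 6 chromosomes had been compared. Their median combined number was 2193 (85 sites), against 3040 for the 1144 other peaks of X. Of these 85, 30 (35.3%, 25.2 to 46.4) were among the strongest 25%, against 25.5% (23.02 to 28.2) of other X peaks, and 11 (12.9%, 6.64 to 22.0) among the weakest, against 24.3% (21.8 to 26.9). Both pairs of intervals overlap slightly. The same sites had median numbers of 2218 in replicate 1 and 2406 in replicate 2, where other X peaks had 3012 and 3084. The spacing rule was also applied to the best 6142 peaks of each replicate. The share of weak peaks was then the lower for isolated X sites in both, but with overlapping intervals. It was 15.7% (8.61 to 25.3) of isolated and 20.7% (18.4 to 23.2) of other X peaks in replicate 1. In replicate 2 it was 14.5% (7.70 to 23.9) and 24.7% (22.3 to 27.3). The excess of strong peaks was seen in replicate 1 (36.1% and 28.2%) and turned round in replicate 2 (24.1% and 26.2%).

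The autosomes were then taken by part. In their central parts, the middle one of 3 parts of equal length, 26.4% of 110 isolated sites and 25.2% of 2035 other peaks were in the strongest 25%. In their outer parts the shares were 25.0% of 276 isolated sites and 24.2% of 2492 other peaks. The weakest 25% held 21.8% of isolated sites and 25.4% of other peaks in the central parts, and 26.1% and 25.5% in the outer parts. Median combined numbers were 2809 and 3098 in the central parts. In the outer parts they were 3289.5 and 3136.5, so isolated sites were placed slightly lower there. By chromosome, the share of isolated sites in the strongest 25% ran from 20.0% on V to 37.0% on III (24.3 to 51.3), where other peaks had 23.6% and 25.2%. The gap on III was thus wider than that on X, and on IV the shares were 32.5% of isolated sites and 25.1% of other peaks. With 54 to 105 isolated sites on each autosome, the intervals of isolated sites and other peaks overlapped on each.

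**Figure D2:**
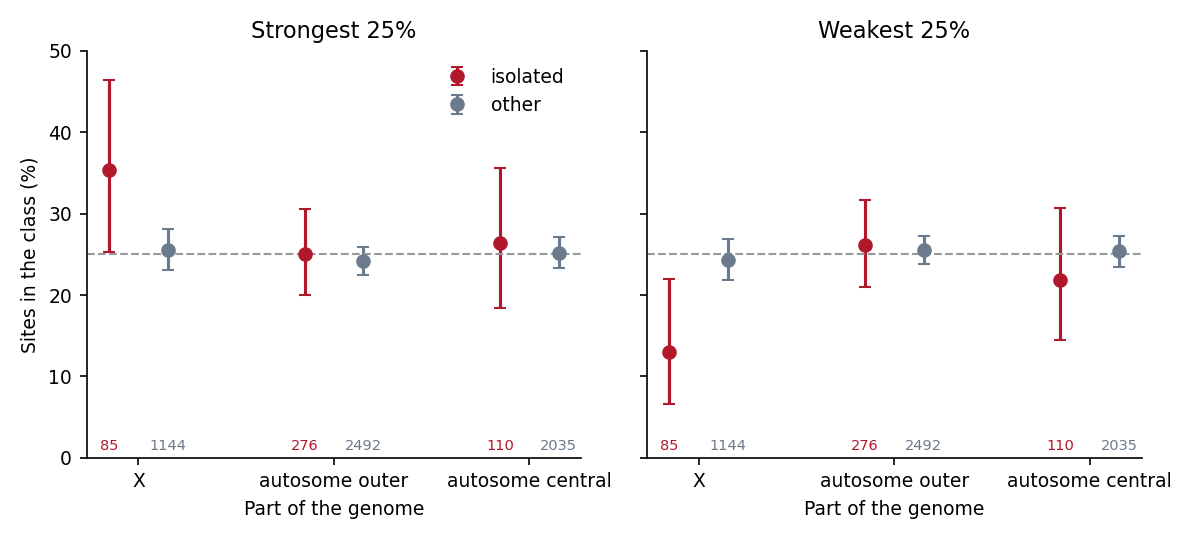
Share of sites (%, vertical axis) in the strongest 25% (left) and the weakest 25% (right) of the combined list on X, in the outer parts and in the central parts of the autosomes (horizontal axis). Points are isolated sites and other peaks with exact 95% intervals, small figures are numbers of sites and the dashed line is the share over all peaks; isolated sites of X lie at 35.3% and 12.9%.

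Of the 471 isolated sites, 276 (58.6%) lay in the outer parts of the autosomes, which covered 55 of 100.2 Mb. All combined peaks were sparser there, with 50.3 per Mb against 78.0 in the central parts. The rule ties location to density, and how far this accounts for the share was not tested. The outer parts are also longer, with 55 Mb against 27.5 Mb for the central parts. Per Mb they held 5.02 isolated sites, against 4 in the central parts. The autosome arms of C. elegans recombine more and are richer in repeats than the chromosome centres. Of 386 autosomal isolated sites, 110 (28.5%, 24.0 to 33.3) were in the central part, against 2035 of 4527 other autosomal peaks (45.0%, 43.5 to 46.4) and 43.7% of all autosomal peaks. Put the other way, 276 of 2768 outer peaks (9.97%, 8.88 to 11.1) and 110 of 2145 central ones (5.13%, 4.23 to 6.15) were isolated. X held 85 of the 471 (18.0%, 14.7 to 21.8), against 1144 of the 5671 others (20.2%, 19.1 to 21.2) and 20.0% of all peaks. On X, 27 of the 85 were in its central part.

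The outer share was the larger on every autosome. On chromosome II, 10.2% (7.82 to 12.9) of outer and 3.78% (2.22 to 5.98) of central peaks were isolated, on III 6.89% and 2.73%, and on I 9.01% and 4.21%. On IV they were 11.2% and 6.65% and on V 13.4% and 8.21%, with intervals that overlap on these 2 chromosomes. X had 7.13% outside and 6.51% in its centre. The highest shares were in the right outer part of V (36 of 191 peaks, 18.8%, 13.6 to 25.1) and the left outer part of II (35 of 214, 16.4%, 11.7 to 22.0), where all peaks together were also few (27.4 and 42.0 per Mb). Measured against length, the number of isolated sites ran from 3.92 per Mb on III to 5.02 on V, while all combined peaks ran from 76.2 per Mb on III to 46.3 on V. Within chromosomes it varied more, from 2.61 per Mb in the centre of III to 6.87 in the left outer part of II. On V the centre had more isolated sites per Mb than the outer parts (5.595 and 4.73).

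**Figure D3:**
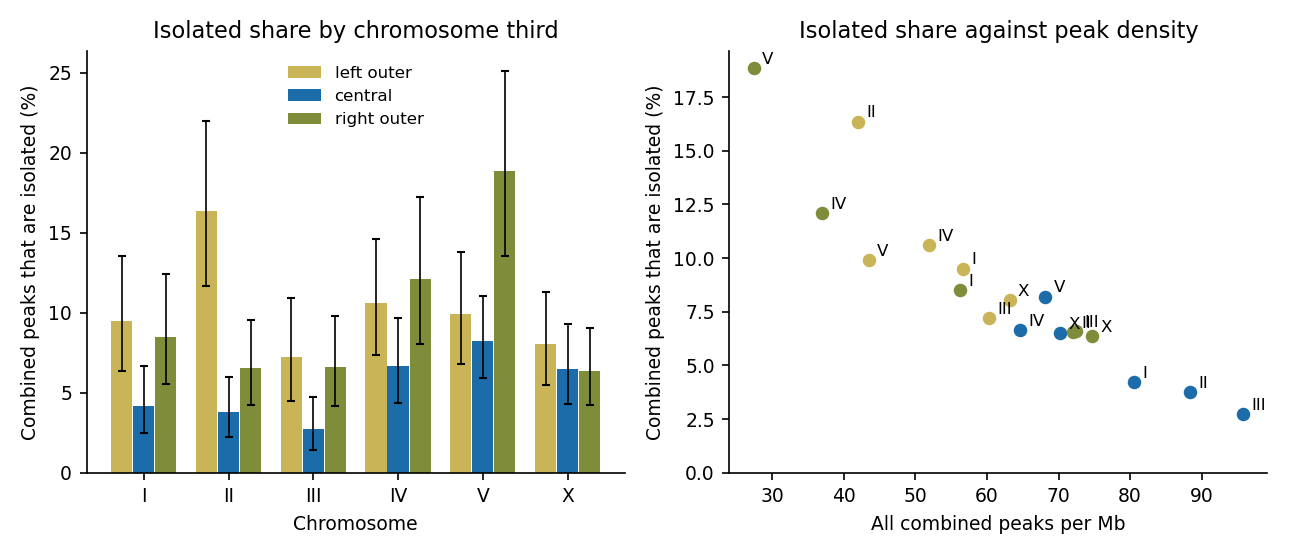
Left, share of combined peaks that are isolated (%) in the left outer, central and right outer parts of each chromosome, with exact 95% intervals. Right, the same shares against the density of all combined peaks (per Mb), labelled by chromosome; the share falls from 18.8% in the sparsest part, on V, to 2.73% in the densest, the centre of III, and the rule itself ties the share to the density.

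The gaps themselves, on which the rule rests, were as follows. Of 6136 gaps between neighbouring combined peaks, 1531 (24.95%) were longer than 20000 bp, and these made up 75.8% of the length between peaks. Among 1530 sites that came after a long gap, 468 (30.6%) had another long gap after them, and these are the isolated sites away from the chromosome ends. Isolated sites had a median distance of 29834 bp to the nearest peak (interquartile range 23947 to 39326), and 14 had none within 100000 bp. Combined peaks were also counted between 20 and 100 kb away, outside the window of the rule. Their median number was 8 (5 to 12) around isolated sites and 11 (7 to 15) around the others. The rule picks sites in sparse stretches, so this difference is tied to it through local density and is no separate result.

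The loneliest site was on chromosome II from 2059015 to 2059394, with no combined neighbour for 239124 bp to its left and 283013 bp to its right. It was of middling strength (combined number 2680) and was listed in replicate 1 (number 2351) but not in replicate 2. Next was a site near the left end of X, from 59232 to 59360, which had its first neighbour 236622 bp away (numbers 3340 and 4087 in the replicates). Chromosome II held 3 more of the 10 most distant sites: from 848538 to 848917 (nearest peak 220469 bp away), and the adjoining pair from 1663664 to 1663818 and from 1819891 to 1820270 (156339 bp apart). On chromosome V there were 4, starting at 2909550, 18346034, 16592128 and 17723129, with nearest distances of 215158, 187585, 187532 and 134751 bp. The remaining one, on chromosome IV from 16656291 to 16656526, was also strong, with combined number 392 and replicate numbers 426 and 447. It was the only member of these 10 in the strongest 25%, and the group's combined numbers reached 5780.

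Isolated sites were also placed by their order along the chromosome. The neighbour of an isolated site has a long gap on that side by the rule, so what follows describes the positions and is no result. Of the 471, 265 stood next to another isolated site, and 73 belonged to 15 series of 4 or more in a row, 11 of them in outer autosomal parts, 2 in central parts and 2 on X. The longest series had 9 sites on chromosome II between 1297300 and 2400151, a mean of 137809 bp apart, and it included the strong site with combined number 48. Series of 6 lay on I (11280612 to 11448974) and V (19946017 to 20383434). Those of 5 lay on I (10894977 to 11063068), on IV (6415296 to 6520073 and 13453492 to 13719277) and on V (9789866 to 10003690). The 8 series of 4 lay on II (410941 to 542794), III (2172028 to 2376171), IV (15672907 to 15932150), V (from 1918001, 15766250 and 18346034) and X (2946731 to 3036284 and 8810986 to 9029237). The first X series holds the strongest isolated site of that chromosome.

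The longest gap of all bordered an isolated site. It ran for 756513 bp on chromosome V between the peak from 16966616 to 16966995 and the isolated site from 17723129 to 17723508. Replicate 1 listed 52 peaks inside it and replicate 2 listed 5, of which 1 region was shared by both. The next longest, 318941 bp on V to the right of the isolated site at 2281587, held 9 peaks of replicate 1 and 0 of replicate 2. The gap of 283013 bp on chromosome II between the isolated sites at 2059015 and 2342028 held 54 and 17, with 11 shared.

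At the threshold itself, the nearest inside were on III from 10357800 (20005 bp from its neighbour, combined number 680), on V from 17981688 (20023 bp, number 5984) and an adjoining pair on V from 20249670 and 20269745 (20075 bp, numbers 5672 and 3905). Just outside were an adjoining pair on X from 573284 and 593265 (19981 bp, numbers 2973 and 4156) and a pair on II from 10200792 and 10220599 (19902 bp, numbers 869 and 3367).

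Replicate agreement was compared next, by asking whether a peak of each replicate overlapped the site by at least 1 bp. Of the isolated sites, 460 of 471 (97.7%, 95.9 to 98.8) were found in both replicates, against 5588 of 5671 other peaks (98.5%, 98.2 to 98.8) and 98.5% of all. The combined list was made from these replicates, so a high share is no independent result. The merging is not described, so how much of the share is built in is unknown. Of the 11 missing from one list, 9 were in replicate 1 only and 2 in replicate 2 only. In replicate 2 the share found was 98.1% (96.4 to 99.1) for isolated sites and 99.5% (99.3 to 99.7) for other peaks. In replicate 1 it was 99.6% (98.5 to 99.9) and 99.03% (98.7 to 99.3). All 128 isolated sites of the strongest 25% were in both, and the 11 incomplete ones had combined numbers from 2096 to 6074.

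Where both replicates had the site, the distance between their peak centres was measured. For each site the overlapping peak with the nearest centre was taken. The replicate centres lay a median of 25 bp apart at isolated sites (interquartile range 10 to 48) and 29 bp at other peaks (12 to 60). It was not particular to isolated sites. By distance to the nearest combined peak, the median was 38 bp below 1000 bp, 21 bp from 10000 to 20000 bp, 24 bp from 20000 to 40000 bp and 31 bp beyond. They were within 100 bp at 441 of 460 isolated sites (95.9%, 93.6 to 97.5), 5014 of 5588 other peaks (89.7%, 88.9 to 90.5) and 90.2% of all. The isolated share was the higher within each of the 4 strength classes of the list. The intervals overlapped in all but the second weakest class (92.0 to 99.4 against 86.3 to 89.8). From strongest to weakest, the shares were 100%, 98.4%, 97.2% and 86.4% for isolated sites and 97.2%, 93.9%, 88.1% and 79.5% for other peaks. Crowding moved with it, since 400 (87.0%, 83.5 to 89.9) of the isolated sites but 3877 (69.4%, 68.2 to 70.6) of the others overlapped exactly 1 peak in each replicate. Among those alone, centres were within 100 bp at 96.2% (93.9 to 97.9) of isolated sites and 91.9% (91.0 to 92.8) of other peaks.

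**Figure D4:**
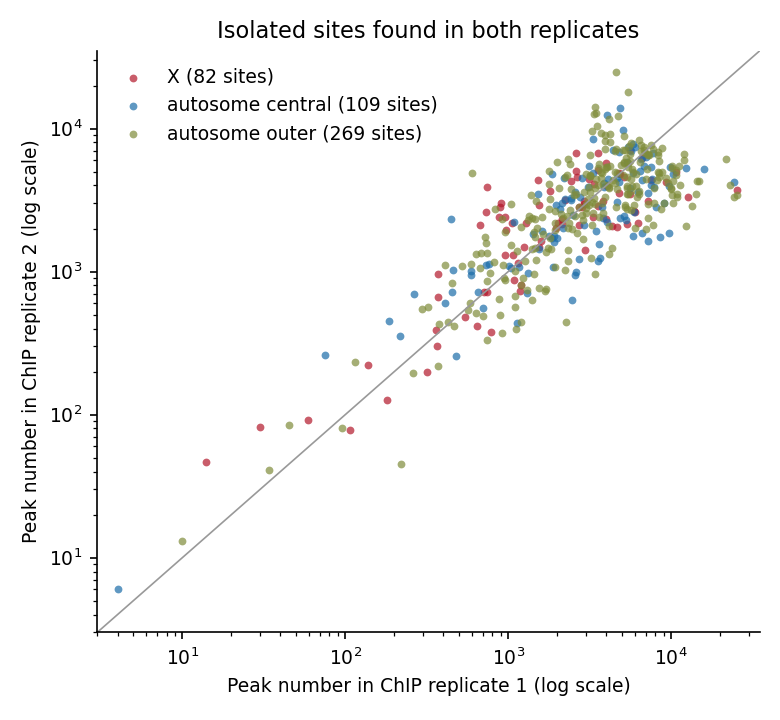
Peak number of each isolated site in ChIP replicate 1 (horizontal) and ChIP replicate 2 (vertical), both on log scales, for the 460 sites found in both; colours mark X, the central and the outer parts of the autosomes and the line marks equal numbers. The strongest site, at 4 and 6, is at the lower left, and the points spread more widely among weaker sites.

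Isolation was then looked for in the replicate lists. In the best 6142 nuclear peaks of each replicate, as many as the combined list holds, 362 of the 471 sites (76.9%, 72.8 to 80.6) had no other peak within 20000 bp in replicate 1, 379 (80.5%, 76.6 to 84.0) in replicate 2 and 312 (66.2%, 61.8 to 70.5) in both. Of the other combined peaks 26 (0.458%) were alone in both, and the share over all peaks was 5.50%. A site can count as alone there without being listed itself: 377 isolated sites were in the best list of replicate 1, 407 in that of replicate 2 and 333 in both. Of these 333, 213 (64.0%, 58.6 to 69.1) were alone in both, against 22 of 3933 other peaks (0.559%). The lists are not independent of the combined one, which was made from these replicates. By the rule every other peak has a combined neighbour within 20000 bp. The low shares of other peaks, and that over all peaks, were therefore largely built in and are no result. By part of the genome, those alone in both were 205 of 276 sites in outer autosomal parts (74.3%, 68.7 to 79.3), 52 of 85 on X (61.2%, 49.99 to 71.6) and 55 of 110 in central parts (50.0%, 40.3 to 59.7).

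Weak replicate peaks, those that overlapped no combined peak, were fewer around isolated sites. The name covers every such peak whatever its number, and no limit of strength was set. Replicate 1 listed a median of 7 of them (interquartile range 5 to 10) within 20000 bp of an isolated site, against 13 (9 to 17) around other peaks. In replicate 2 the medians were 4 (2 to 7) and 12 (8 to 17). Of the 471 sites, 52 had no weak peak of replicate 2 within that distance, against 19 of the 5671 other peaks. None of replicate 1 lay near 9 isolated sites and 5 other peaks. Of the isolated sites, 6 had none of either. The strong X site from 2996824 had 2 of replicate 1 and 0 of replicate 2, while the strongest isolated site, on chromosome III, had 15 and 15.

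The same held for weak peaks that both replicates shared. At least 1 such region lay within 20000 bp of 358 of 471 isolated sites (76.0%, 71.9 to 79.8), 5473 of 5671 other peaks (96.5%, 95.997 to 97.0) and 94.9% of all. The mean number was 2.40 per isolated site and 6.99 per other peak. The share was 83.6% for isolated sites in central autosomal parts, 75.4% in outer parts and 68.2% on X, where other peaks had 98.3%, 95.6% and 95.4%. By strength, from the strongest to the weakest of the 4 classes, 76.6%, 73.0%, 75.5% and 79.4% of isolated sites had one. Their intervals overlapped one another. Of other peaks, 96.8%, 95.7%, 96.5% and 97.1% had one. For 113 isolated sites the surroundings were empty of shared peaks as well.

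With distance, the shared weak peaks formed a collar and then a trough. Around isolated sites there were 14.9 per 100 kb at 1000 to 2500 bp, 5.03 at 5000 to 10000 bp and 3.35 at 10000 to 15000 bp. The density was higher again, at 7.74 from 20000 to 40000 bp and 9.03 from 80000 to 100000 bp, beside 9.66 over the genome as a whole. Around other peaks the density dropped steadily, with 30.1, 18.1, 14.3, 11.5 and 10.8 at these distances. The rule removed combined peaks up to 20000 bp, and beyond it, from 20000 to 40000 bp, these stood at 5.09 per 100 kb. The trough thus lay inside the window of the rule. Weak peaks were not used by the rule, but they come from the same libraries and are defined by the combined list. How far the trough follows from the rule was not tested. In replicate 1 alone the trough at 10000 to 15000 bp was 14.8 per 100 kb around isolated sites and 29.3 around other peaks, and in replicate 2 it was 8.15 and 26.2.

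**Figure D5:**
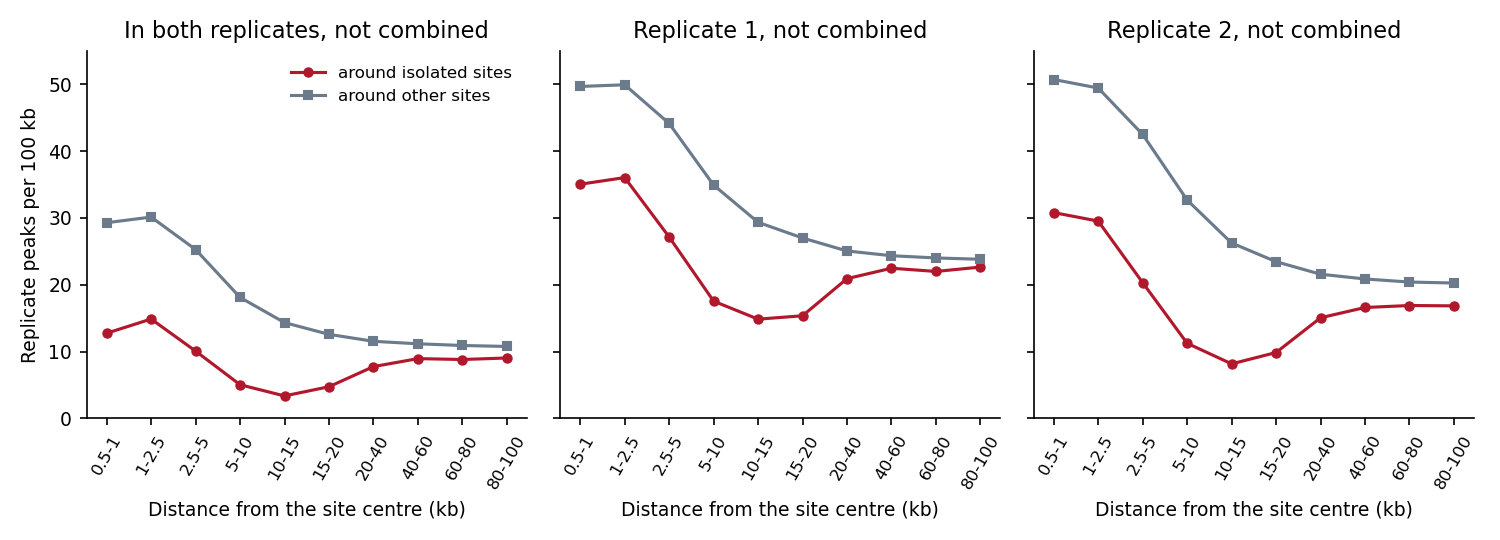
Density of replicate peaks that overlap no combined peak (per 100 kb, vertical axis) by distance from the centre of isolated sites and of other combined peaks (kb, horizontal axis, unequal classes), for regions in both replicates (left), replicate 1 (middle) and replicate 2 (right). Around isolated sites the shared regions drop to 3.35 per 100 kb at 10 to 15 kb and return to 9.03 at 80 to 100 kb, while around other peaks they drop steadily to 10.8.

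Weak peaks near isolated sites were also shared less often. Of 3397 weak peaks of replicate 1 within 20000 bp of an isolated site, 1054 (31.0%, 29.5 to 32.6) overlapped a peak of replicate 2. Of 16948 within that distance of other combined peaks alone, 8099 did (47.8%, 47.0 to 48.5), and of 2546 near no combined peak, 532 (20.9%, 19.3 to 22.5). For replicate 2 the shares were 45.1% (43.0 to 47.2) of 2268, 54.3% (53.5 to 55.1) of 14887 and 46.8% (43.8 to 49.8) of 1100. Weak peaks were denser around other peaks, which makes an overlap more likely, and the part of density in this difference was not tested. Their median numbers in replicate 1 were 19465 near isolated sites and 17454 near other peaks, so those near isolated sites were also weaker.

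Some isolated sites had a neighbour that both replicates listed well but that overlapped no combined peak. Such a region, numbered in the first 6142 of both lists, lay within 20000 bp of 18 isolated sites (3.82%, 2.28 to 5.97), 350 other peaks (6.17%, 5.56 to 6.83) and 5.99% of all peaks, a count made after these values were seen. At the site on I from 5261683 to 5261855 (combined 932), a region 17488 bp away had numbers 1265 and 1016 in replicates 1 and 2. At the site on IV from 8375509 to 8375625 (combined 2112), one 3932 bp away had numbers 1210 and 1683. At the site on I from 8508605 to 8508984 (combined 4850), one 2667 bp away had 2078 and 2134, better placed in both lists than the isolated site's own 3310 and 8422.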

How the data were processed

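Peak lists of 2 ChIP replicates and 1 combined list were used. Per the file headers, coordinates are in WormBase build WS220, and the source field names SPP and IDR. For versions, settings, depth and the merging of replicates, the sources used here give nothing. The deposited score of each peak has no stated scale, is constant in the combined list and has a ceiling in the replicates, so strength was read from the peak number. Entries that repeat a region were dropped, and mitochondrial peaks were left out (29963 and 25121 distinct nuclear regions in replicates 1 and 2). Chromosomes were taken to end at the last base of any peak.

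The members, lists and comparisons were chosen with earlier results of these data known. Peaks are not replicates and 2 samples allow no test, so values are described by counts, medians and exact 95% intervals for a binomial share (Clopper-Pearson). These intervals cover only the error of counting. The spacing, overlap and window counts were checked on simulated lists. Alternatives were another isolation distance (10000 or 40000 bp), gaps between peak edges, chromosome ends not counted as far, only peaks in both replicates, leaving out a replicate, and other definitions of overlap, centre, strength and weak peaks. Sites named were the 10 strongest, the 10 most distant, the best of each chromosome, those next to the threshold and series of 4 or more. Genes, promoters and motifs were not examined, because the gene table used here follows assembly WBcel235 and coordinates were not converted. Tables were computed in Python 3.11.15 with pandas 2.3.3 and numpy 2.4.6, intervals with scipy 1.17.1 and plots with matplotlib 3.10.9.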

Additional observations from a re-analysis of the deposited data

How the results depend on the processing

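Of 63 alternatives over 9 results, 50 left the value within its 95% interval or the count within 1.5 times. The strength and X shares were among them throughout, from 25.5% to 28.1% in the strongest 25%, 22.1% to 24.5% in the weakest 25% and 16.6% to 18.3% on X. Without replicate 1 or 2, using the best peaks of the other, 487 and 484 sites were isolated, 25.7% and 28.1% of them in the strongest 25%, and 26.98% and 27.9% of the autosomal ones central. Of other peaks under these settings, 24.9% and 24.7% were in the strongest 25%, and 46.4% and 46.9% of the autosomal ones were central. At 10000 bp 1059 sites were isolated, 85.8% had a shared weak peak nearby and 73.7% were alone in both replicate lists. At 40000 bp 110 were isolated, and 19.8% of the autosomal ones were central, against 44.1% of other autosomal peaks. Of the 110, 99.1% were in both replicates, and 65.5% had a shared weak peak. Close centres were found at 92.7% of those in both. Taking the middle 50% as central gave 41.5%. Presence in both replicates came to 75.6% when a reciprocal 50% overlap was asked for, and to 94.3% on the basis of centres at most 100 bp apart. A shared weak peak was near 66.2% with reciprocal 50% overlap and 19.1% with the first 10000 peaks of each replicate. Stricter definitions lower these shares by construction, and for the others the cause was not tested. Where no value of other peaks stands beside an alternative, whether a contrast with them remains is not shown here. Using only sites with 1 overlapping peak in each replicate (96.2%), or a partner outside the combined list (76.0%), was added after the data were seen. No paired analysis was possible because the results are counts over peaks of 1 combined list, with no fit across samples. The depth is unknown, so a peak missing from a list may only have been too weak to be listed.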
